A study of Mus musculus with 6 samples.

Results

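The Zfp genes are mouse genes named for zinc finger proteins, and 78 of them had a row among the 4162 genes of the deposited count table. The rule takes every row whose symbol starts with Zfp followed by a digit and uses no measured value. GENCODE M21 annotates 394 protein-coding Zfp genes in the mouse, so the table holds 19.8% of them. Zfp genes without a row were not analysed here. The samples were CD4+ T cells of 3 UTX TCD mice, which lack UTX in T cells, and of 3 WT mice, both on a B6 background. Naive cells were isolated from the spleen with magnetic beads and then activated for 48 h, with anti-CD3 on the plate and anti-CD28 in solution, in both genotypes. UTX, encoded by Kdm6a, is a demethylase of histone H3 lysine 27, and the comparison asks which transcripts change in its absence. The sources used here name neither the promoter that drives the deletion nor the exons deleted.

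A zinc finger is a short loop of protein held together by a zinc ion. In the C2H2 type, a pair of cysteines and a pair of histidines hold the ion, and rows of such fingers read DNA sequence. Many mouse Zfp proteins also carry a KRAB domain, which recruits the corepressor Trim28 and, through it, enzymes that methylate histone H3 lysine 9. KRAB zinc finger genes often lie side by side on a chromosome and are best known for silencing transposable elements. A few proteins with the Zfp name carry CCCH fingers, with 3 cysteines and 1 histidine, and bind AU-rich messenger RNAs in place of DNA.

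The coding DNA below shows these elements in members described later, read from the GRCm38 genome with GENCODE M21 coding exons and printed on the coding strand. For the CCCH and C2H2 fingers, capitals mark the codons of the cysteines and histidines of the pattern. For the KRAB boxes, capitals mark the codons of the fixed residues of the pattern. The KRAB stretches are shown because Zfp612 and Zfp60 were higher and Zfp426 and Zfp568 lower in UTX TCD cells, and each carries the box.
Zfp612 KRAB A box, chr8:110083669-110083707, plus strand: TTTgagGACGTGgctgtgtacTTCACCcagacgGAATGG
Zfp60 KRAB A box, chr7:27738315-27738353, plus strand: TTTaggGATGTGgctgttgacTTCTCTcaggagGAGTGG
Zfp426 KRAB A box, chr9:20474983-20475021, minus strand: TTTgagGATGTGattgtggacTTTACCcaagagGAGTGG
Zfp568 KRAB A box, chr7:30015075-30015113, plus strand: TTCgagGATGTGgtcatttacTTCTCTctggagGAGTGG
Zfp281 C2H2 finger, chr1:136626063-136626125, plus strand: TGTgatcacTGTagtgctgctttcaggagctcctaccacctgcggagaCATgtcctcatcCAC
Zfp652 C2H2 finger, chr11:95749986-95750051, plus strand: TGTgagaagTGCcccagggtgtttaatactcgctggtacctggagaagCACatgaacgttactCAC
Zfp467 C2H2 finger, chr6:48439171-48439233, minus strand: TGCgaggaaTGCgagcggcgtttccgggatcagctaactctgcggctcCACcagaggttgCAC
Zfp36 CCCH finger, chr7:28378158-28378217, minus strand: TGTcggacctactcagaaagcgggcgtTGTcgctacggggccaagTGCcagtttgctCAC
Zfp36l1 CCCH finger, chr12:80110189-80110248, minus strand: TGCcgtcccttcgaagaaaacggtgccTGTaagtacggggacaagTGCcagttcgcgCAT

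Summed over the listed genes, the columns held 8363326 to 10288306 counts. The table holds few genes with similar values in the genotypes, the pattern a selection on that difference would leave: 20 of 4118 tested genes had a log2 fold change within 0.1 of 0, and the sources used here do not give the rule of the selection. Levels in CPM, counts scaled to a common library total, are therefore relative to the listed genes only, and calls within the table are common. Of all tested genes, 68.1% passed an adjusted p of 0.05 in edgeR's quasi-likelihood test, 41.1% higher and 27.0% lower in UTX TCD cells. Kdm6a averaged 191.3 ± 14.4 CPM in UTX TCD cells and 283.0 ± 2.96 CPM in WT cells (SD, n = 3 each), with a log2 fold change of -0.57 ± 0.09 (SE). The UTX TCD libraries varied more than the WT libraries, with a biological coefficient of variation of 22.1% against 8.01% over all genes, and of 16.1% against 6.57% over the Zfp genes. Of the T cell markers only Cd28 had a row, at 1634 to 1854 CPM in UTX TCD cells and 849 to 1092 CPM in WT cells. Cd8b1, a marker of CD8 T cells, lay at 31.5 to 56.2 CPM in UTX TCD cells and 11.6 to 14.5 CPM in WT cells, and its part in the results below was not tested. Cd8a and every marker listed for B cells, myeloid cells, neutrophils and erythroid cells had no row and were not analysed here.

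The Zfp genes were mostly higher in UTX TCD cells. Of 78 members, all tested, 55 rose (70.5%, against 41.1% of all tested genes) and 5 fell (6.41%, against 27.0%), while 18 were not called. The fitted log2 fold change was positive for 60 members and negative for 18. Its median was 0.46 over the members, with a range of -1.14 to 2.33, and -0.15 over all tested genes. Among genes of low level the medians of members and tested genes lay closer together, as given by level below. Members took 0.885%, 0.962% and 0.866% of the counts in the UTX TCD libraries, against 0.773%, 0.774% and 0.775% in the WT libraries, so the shares did not overlap. In bulk RNA, fewer cells of a type and less RNA per cell cannot be told apart.

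The 6 libraries separated the genotypes for 69 members (88.5%, against 85.8% of all tested genes). All 3 UTX TCD libraries lay above all 3 WT libraries for 56 members (71.8%, against 41.8%) and below them for 13 (16.7%, against 44.0%). Most shifts were small: 10 members rose and 1 fell by at least 2-fold, 12.8% and 1.28% of the members, against 12.9% and 6.63% of all tested genes. Without WT replicate 1, 2 and 3 in turn, 21, 23 and 34 members were called higher (26.9%, 29.5% and 43.6%), against 19.6%, 17.6% and 28.8% of all tested genes. Members called lower numbered 12 and 8 without UTX TCD replicate 1 and 2 (15.4% and 10.3%, against 34.5% and 35.3% of all tested genes). Without any other single library they numbered 3 (3.85%, against 8.47% to 22.4% of all tested genes). With scaling centred on the emptiest fold change of the table, 51 members were higher and 14 lower, so that 78.5% of called members were higher in place of 91.7%. Over all called genes that share was 46.5% in place of 60.4%. Counting all 55536 annotated genes as tests left 3 members higher, Zfp608, Zfp652 and Zfp53, and 1 lower, Zfp426. The share higher was then 3.85% of members, below the 5.2% of all tested genes. The share lower was 1.28%, against 3.38%.

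**Figure D1:**
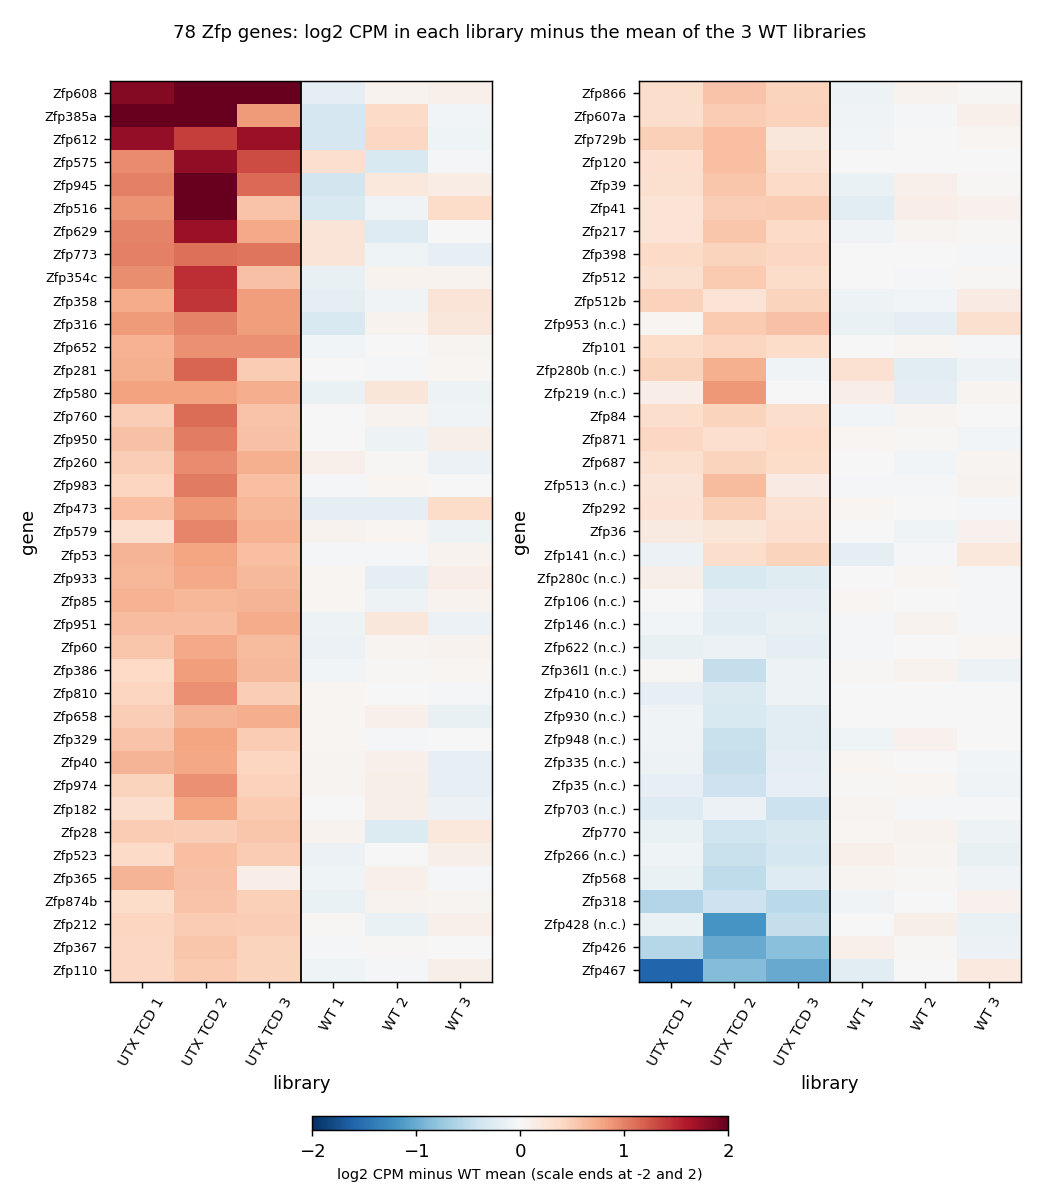
Each row is 1 of the 78 Zfp genes and each column 1 library, with colour giving log2 CPM minus the mean of the 3 WT libraries; genes run in order of fold change and n.c. marks those not called. The upper genes are red in all 3 UTX TCD libraries and the 5 called falls stand near the lower end of the right panel.

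Zfp608, which encodes a large nuclear protein and whose gene overlaps Gm26742 and Gm4221 on the opposite strand, stood furthest apart. It had 147, 250.2 and 222 CPM in UTX TCD cells, against 36.3, 43.2 and 44.2 CPM in WT cells. The lowest UTX TCD library was more than 3 times the highest WT library. The 5.01-fold rise gave a log2 fold change of 2.33 ± 0.20 (SE) and an adjusted p of 5.32e-04. This was also the only member above 2 on the log2 scale.

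Zfp385a, a zinc finger protein known as Hzf and a target of p53, had 31.5, 32.7 and 12.7 CPM in UTX TCD cells, against 5.45, 9.11 and 6.70 CPM in WT cells. UTX TCD replicate 3 was well below the other two but still above every WT library. Its log2 fold change was 1.85 ± 0.39 (adjusted p = 0.00805). Zfp612, a KRAB gene on chromosome 8, was at low counts, with 8.32, 6.34 and 8.13 CPM in UTX TCD cells and 1.78, 3.15 and 2.16 CPM in WT cells. The groups did not overlap, and the log2 fold change was 1.68 ± 0.31 (adjusted p = 0.00529). Both calls held whichever library was left out.

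In other members with large rises, 1 UTX TCD library lay far above the other two. Zfp945, a KRAB gene, had 6.75, 14.8 and 7.40 CPM in UTX TCD cells, against 2.48, 3.80 and 3.63 CPM in WT cells, a log2 fold change of 1.55 ± 0.38 (adjusted p = 0.0134). Zfp516, an activator of Ucp1 in brown fat, had 11.2, 25.3 and 8.85 CPM in UTX TCD cells, against 4.75, 5.64 and 7.72 CPM in WT cells, a log2 fold change of 1.32 ± 0.43 (adjusted p = 0.0289). UTX TCD replicate 2 was the high library for both genes, although no UTX TCD library fell among the WT libraries. Without WT replicate 1 the adjusted p was 0.056 for Zfp945 and 0.092 for Zfp516, and without WT replicate 2 it was 0.087 for Zfp516. Without UTX TCD replicate 2 the log2 fold change of Zfp516 was 0.73 (adjusted p = 0.049).

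Zfp629, Zfp773, Zfp354c, Zfp358 and Zfp316 completed the 10 largest rises among members with an average log2 CPM of at least 2, with log2 fold changes of 0.90 to 1.22. Their groups did not overlap. Zfp773 was the tightest, at 7.71, 8.24 and 8.02 CPM in UTX TCD cells and 4.46, 3.47 and 3.29 CPM in WT cells. Among these 5, only Zfp358 was called whichever library was left out, at 24.8, 40.5 and 26.7 CPM in UTX TCD cells and 13.0, 14.1 and 17.8 CPM in WT cells. Zfp629 and Zfp773 were not called without WT replicate 2, Zfp316 without WT replicate 1 or 2, and Zfp354c without any 1 of the WT replicates. Zfp575 rose by 1.63 ± 0.46 on the log2 scale but lay at only 0.598 ± 0.181 CPM in WT cells (SD, n = 3), and it is named although it is outside the rule for named genes.

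**Figure D2:**
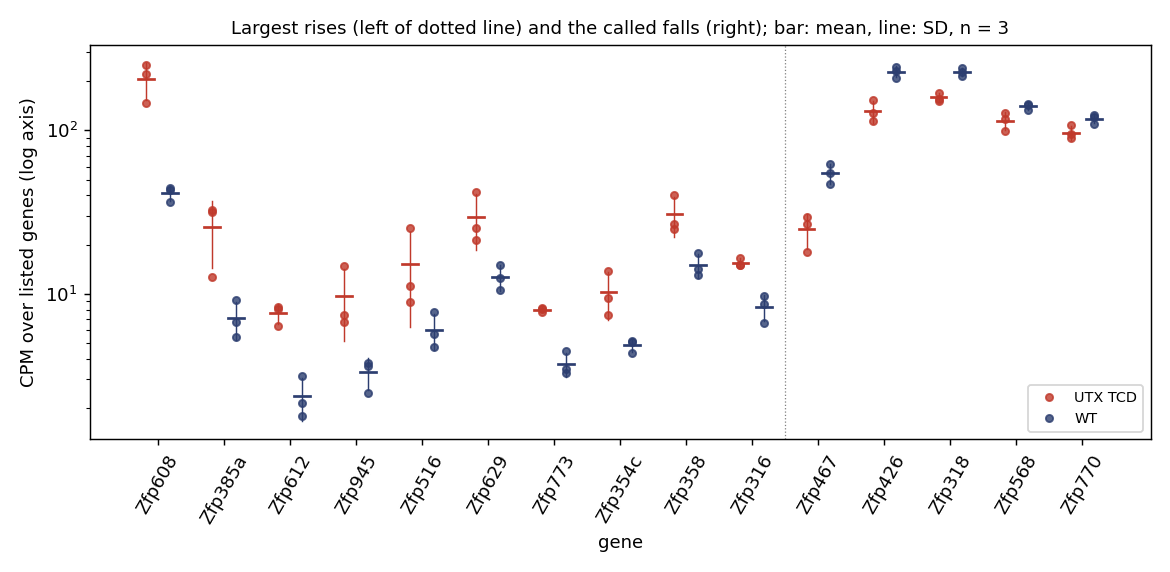
CPM over the listed genes, on a log axis, for the 10 largest rises and, right of the dotted line, the 5 called falls; points are libraries, UTX TCD in red left of WT in blue, bars are means and lines the SD (n = 3). Zfp608 stands highest above its WT libraries, and Zfp467 furthest below.

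Smaller rises included Zfp281, Zfp652 and Zfp53. Zfp281, which binds GC-rich promoters and is known for regulating pluripotency genes, had 553.5, 756 and 482 CPM in UTX TCD cells, against 338, 330.4 and 348 CPM in WT cells. The log2 fold change of Zfp281 was 0.82 ± 0.16 (adjusted p = 0.00617), and every UTX TCD library lay above the WT range. Zfp652, a C2H2 protein whose gene overlaps Abi3 and Zfp652os on the opposite strand, had 102, 118 and 118 CPM in UTX TCD cells, against 60.5, 62.8 and 65.7 CPM in WT cells. Its libraries were close together within each genotype, and its log2 fold change was 0.84 ± 0.10 (adjusted p = 0.00136). Zfp53, a KRAB gene, had 128, 138 and 122 CPM in UTX TCD cells, against 78.6, 78.2 and 83.8 CPM in WT cells, a log2 fold change of 0.69 ± 0.09 (adjusted p = 0.00195).

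Zfp292 and Zfp217 moved less, at levels above those of Zfp652 and Zfp53 in both genotypes and below that of Zfp281 in UTX TCD cells. Zfp292 had 487, 553 and 492 CPM in UTX TCD cells, against 408, 394 and 390.5 CPM in WT cells, a log2 fold change of 0.36 ± 0.08 (adjusted p = 0.0109). Zfp217, whose human counterpart is amplified in breast cancer, had 244, 296 and 263 CPM in UTX TCD cells, against 191, 208 and 204 CPM in WT cells, a log2 fold change of 0.41 ± 0.10 (adjusted p = 0.0111). Neither pair of groups overlapped. The call of Zfp292 was lost without WT replicate 2 and that of Zfp217 without WT replicate 1.

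In all, 17 of the 55 rises kept their call whichever library was left out. Besides Zfp608, Zfp385a, Zfp612, Zfp358, Zfp652, Zfp281 and Zfp53 these were Zfp260, Zfp60 and Zfp398 and, named after their values were seen, Zfp950, Zfp933, Zfp386, Zfp329, Zfp367, Zfp110 and Zfp871. Their log2 fold changes ran from 0.38 for Zfp871 to 2.33 for Zfp608. How many of all genes called higher kept their call in this way was not counted here. Without WT replicate 1, 2 and 3 in turn, 19.6%, 17.6% and 28.8% of all tested genes were higher, in place of 41.1%. Zfp110, also called NRIF, binds the p75 neurotrophin receptor; its counts are uncertain because the protein shares 84.8% with Zfp369, which has no row. It had 167.6 ± 6.40 CPM in UTX TCD cells and 121.7 ± 8.93 CPM in WT cells (SD, n = 3 each).

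Of the 5 members that fell, 3 were clear of every WT library by a wide margin and kept their call whichever library was left out. How many of all genes called lower did so was not counted here. Without WT replicate 1, 2 and 3 in turn, 9.69%, 8.47% and 13.1% of all tested genes were lower, in place of 27.0%. Zfp467, a C2H2 protein that promotes fat cell over bone cell formation in marrow progenitors, had 17.96, 29.6 and 26.9 CPM in UTX TCD cells, against 46.8, 54.8 and 62.6 CPM in WT cells. It was 2.20-fold lower in UTX TCD cells, a log2 fold change of -1.14 ± 0.21 (adjusted p = 0.00542). Zfp426, a KRAB gene, had 154, 114 and 127 CPM in UTX TCD cells, against 245, 231 and 209.8 CPM in WT cells, a log2 fold change of -0.80 ± 0.13 (adjusted p = 0.00335). Zfp318, which in B cells is required for the transcript that makes IgD, had 152, 170.0 and 156 CPM in UTX TCD cells, against 216, 226 and 241 CPM in WT cells, a log2 fold change of -0.52 ± 0.09 (adjusted p = 0.00401).

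The other two falls were small. Zfp568, a KRAB protein that represses a placental Igf2 transcript, had 127, 98.7 and 118 CPM in UTX TCD cells and 145, 142 and 132.5 CPM in WT cells, a log2 fold change of -0.29 ± 0.11 (adjusted p = 0.0462). Zfp770 had 107, 89.3 and 94.3 CPM in UTX TCD cells and 120.5, 124 and 109 CPM in WT cells, a log2 fold change of -0.28 ± 0.10 (adjusted p = 0.0404). The groups did not overlap for either gene. Both calls were lost under RLE or upper-quartile scaling, with DESeq2, and without UTX TCD replicate 3 or any 1 of the WT replicates.

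Zfp335, which is required for T cell maturation in mice and overlaps Pcif1 and Zfp335os on the opposite strand, had 159, 124 and 149 CPM in UTX TCD cells, against 176, 171.5 and 164 CPM in WT cells. Its UTX TCD libraries were all below the WT range, yet the log2 fold change of -0.24 ± 0.11 was not called (adjusted p = 0.0701). It was called lower, at -0.31 to -0.44, with centred scaling, with the length and GC correction and without UTX TCD replicate 1. Zfp428 was not called either, at 14.3 ± 4.997 CPM in UTX TCD cells and 20.8 ± 1.75 CPM in WT cells (SD, n = 3 each), and is named after its values were seen because its shift, -0.54 ± 0.27, was larger than that of Zfp318. It was called lower without UTX TCD replicate 1, at -0.80 (adjusted p = 0.03), and was -0.31 without UTX TCD replicate 2, where Zfp318 was at -0.57.

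The 3 members with fold changes nearest 0 were Zfp280c, Zfp106 and Zfp146, at -0.13 ± 0.12, -0.14 ± 0.08 and -0.14 ± 0.09 on the log2 scale. Zfp106, an RNA-binding protein needed by motor neurons, averaged 944 ± 72.2 CPM in UTX TCD cells and 1036 ± 24.4 CPM in WT cells (SD, n = 3 each), the highest level of any member in CPM. Zfp622, which acts in ribosome assembly, had 238, 243 and 231 CPM in UTX TCD cells, against 258, 261 and 270 CPM in WT cells. The Zfp622 groups did not overlap, but its log2 fold change of -0.15 ± 0.08 was not called (adjusted p = 0.0968). Without UTX TCD replicate 1, Zfp280c and Zfp106 were called lower, at -0.27 and -0.195, and with centred scaling Zfp146 and Zfp622 were, at -0.21 and -0.22. Zfp622 was also called lower without UTX TCD replicate 2, at -0.17 (adjusted p = 0.022). No member lay between -0.13 and 0.24, in the range that is nearly empty over the whole table, and the rises nearest that gap were Zfp141, not called, and Zfp36.

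The pair of CCCH genes did not move together. Zfp36, known as tristetraprolin, recruits the CCR4-NOT deadenylase to AU-rich transcripts, among them cytokine messages in T cells. It had 181, 190 and 202 CPM in UTX TCD cells, against 160, 151 and 169 CPM in WT cells, and its log2 fold change of 0.26 ± 0.09 was called (adjusted p = 0.0321). The groups lay close together without overlapping, and the call was lost without UTX TCD replicate 3, without any 1 of the WT replicates and with centred scaling, at 0.19 to 0.29 on the log2 scale. Zfp36l1, a relative with the same function, had 505, 357.5 and 463 CPM in UTX TCD cells, against 507, 523 and 464 CPM in WT cells, and its groups overlapped. Its log2 fold change of -0.17 ± 0.13 was not called (adjusted p = 0.238). Whether the 2 fold changes differ was not tested. Among deadenylation and decay partners, 6 genes had rows, of which Btg2 (0.53) and Zc3h12d (0.26) were higher on the log2 scale and none was lower. The share higher, 33.3%, stood beside 41.1% of all tested genes, of which 27.0% were lower, and 6 genes are few for such a share. With centred scaling 1 of the 6 was higher and 2 were lower, with 38.1% and 43.9% of all tested genes. In the fits without WT replicate 1, 2 and 3 in turn, 0, 1 and 1 of the 6 were higher, with 19.6%, 17.6% and 28.8% of all tested genes.

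By predicted protein, 37 members had a KRAB box with C2H2 fingers, 37 had C2H2 fingers without one, 2 were CCCH proteins and 2, Zfp703 and Zfp365, had neither motif. Zfp365 rose, at 92.7, 86.5 and 63.3 CPM in UTX TCD cells and 54.0, 61.9 and 56.9 CPM in WT cells, a log2 fold change of 0.49 ± 0.15, but the call was lost when any library other than UTX TCD replicate 3 was left out. The KRAB class came from a pattern widened after reading the translated sequences, since the first pattern found a box in 24 members only. Of 37 KRAB members, 30 rose (81.1%, against 41.1% of all tested genes) and 2 fell (against 27.0%), with a median log2 fold change of 0.51. Of the 37 C2H2 members without KRAB, 23 rose (62.2%) and 3 fell, with a median of 0.41. With the narrower pattern, 18 of 24 KRAB members rose and 2 fell, at a median of 0.46. The difference between the classes was not tested, and without WT replicate 1, 2 and 3 in turn the rises numbered 9, 13 and 16 in the KRAB class and 12, 10 and 18 among C2H2 members without KRAB, where 19.6%, 17.6% and 28.8% of all tested genes were higher.

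**Figure D3:**
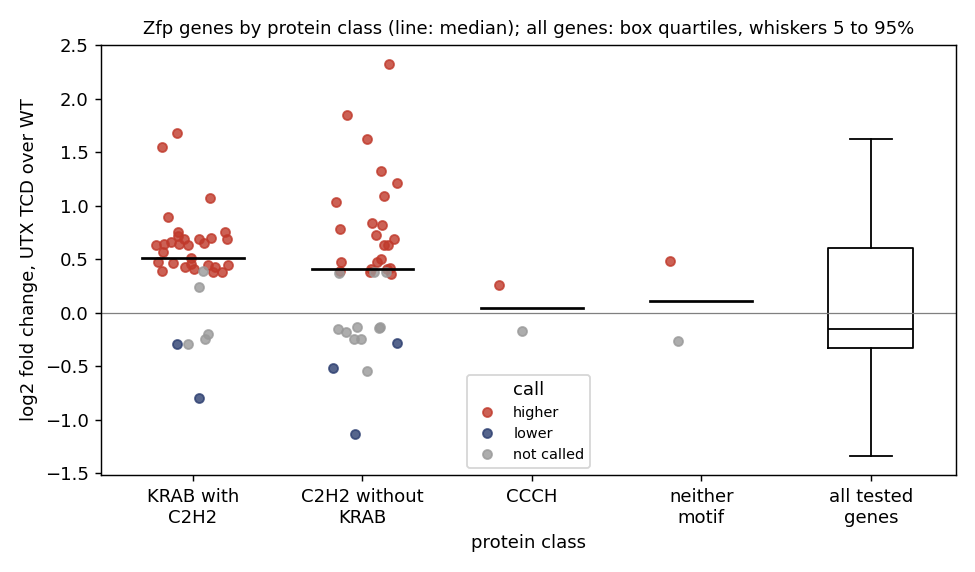
Log2 fold change of UTX TCD over WT for each Zfp gene, by protein class, with colour giving the call and the line the class median; the box holds the quartiles of all tested genes, with whiskers at 5 and 95%. Medians of the KRAB and other C2H2 classes, 0.51 and 0.41, lie above the -0.15 of all tested genes.

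The members were also grouped by their number of C2H2 fingers. Of 42 members with 10 or more C2H2 fingers, 32 rose (76.2%, against 41.1% of all tested genes) and 4 fell (against 27.0%), at a median log2 fold change of 0.60. Of 22 members with 4 to 9 fingers, 15 rose and none fell, at 0.42, and of 10 with 1 to 3 fingers, 6 rose and 1 fell, at 0.44. Without WT replicate 1, 2 and 3 in turn, the rises numbered 10, 12 and 18 among members with 10 or more fingers and 11, 11 and 16 among the 32 with 1 to 9, where 19.6%, 17.6% and 28.8% of all tested genes were higher. Of the symbols listed for silencing partners that KRAB proteins use and related H3K9 genes, 8 of 32 had rows. Tasor and Fam208a, both listed, name the same gene. Atf7ip (0.36), Fam208a (0.39) and Morc3 (0.35) were higher on the log2 scale and Dnmt3a (-0.54), a DNA methyltransferase, was lower. The share higher, 37.5%, was close to the 41.1% of all tested genes, of which 27.0% were lower. Dnmt3a averaged 891 ± 69.1 CPM in UTX TCD cells and 1298 ± 63.2 CPM in WT cells (SD, n = 3 each). Without WT replicate 1, 2 and 3 in turn, 0, 0 and 1 of these genes were higher, with 19.6%, 17.6% and 28.8% of all tested genes. Trim28 and Setdb1 were not analysed here.

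Members in chromosomal runs of neighbouring Zfp genes were next compared, taking a run as 4 or more annotated Zfp genes with gaps of at most 500 kb. GENCODE M21 holds 23 such runs with 208 genes. Of 42 members in runs 32 rose (76.2%) and 3 fell, and of 36 outside them 23 rose (63.9%) and 2 fell, where 41.1% of all tested genes were higher and 27.0% lower. Without WT replicate 1, 2 and 3 in turn, 11, 12 and 16 in runs and 10, 11 and 18 outside them were higher, with 19.6%, 17.6% and 28.8% of all tested genes. The median log2 fold changes were 0.48 inside and 0.42 outside runs. Only 5 runs had 3 or more listed members. The rises counted in these runs below stand beside 70.5% of all members and 41.1% of all tested genes called higher.

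The run on chromosome 17 (chr17:21008903-23599487, GRCm38) had 6 of its 23 genes listed. Zfp53, Zfp983, Zfp760, Zfp945 and Zfp40 rose, at 0.63 to 1.55 on the log2 scale, while Zfp948 in the same run had -0.24 ± 0.12 and was not called. Zfp948 had 83.9, 64.8 and 74.8 CPM in UTX TCD cells, against 82.9, 93.3 and 87.9 CPM in WT cells, so its groups overlapped. It was called lower, at -0.33, without UTX TCD replicate 1 and, at -0.31, with centred scaling. The calls of Zfp983, Zfp760 and Zfp40 were lost without any 1 of the WT replicates. The run on chromosome 13 (chr13:67038596-67827002) had 4 of 23 listed, of which Zfp874b, Zfp729b and Zfp85 rose by 0.45 to 0.69, while Zfp953 had 0.39 ± 0.21 and was called only without UTX TCD replicate 1, at 0.54. Each of the 3 rises on chromosome 13 lost its call without WT replicate 1 or 2. The calls of Zfp874b and Zfp729b were also lost without WT replicate 3, and that of Zfp874b without UTX TCD replicate 3.

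On chromosome 7, all 4 listed genes of a 9-gene run (chr7:27689340-28380253) rose, namely Zfp60, Zfp607a, Zfp974 and the CCCH gene Zfp36. Of all members 70.5% rose, so 4 of 4 is a small count. In the fits without WT replicate 1, 2 and 3 in turn, 1, 1 and 2 of the 4 were higher. Zfp60, a KRAB gene, had 82.8, 94.9 and 87.6 CPM in UTX TCD cells, against 51.8, 58.2 and 59.1 CPM in WT cells, a log2 fold change of 0.65 ± 0.11 (adjusted p = 0.00377). Its neighbour Zfp974 rose by 0.63 ± 0.23 and Zfp607a by 0.45 ± 0.13. Of the 4, only Zfp60 was called whichever library was left out, and the call of Zfp974 was also lost with centred scaling, the replicate block and the length and GC correction.

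The second run on that chromosome (chr7:29768552-30169750) had 4 of 15 genes listed and was mixed. Zfp84 (0.38 ± 0.09) and Zfp260 (0.73 ± 0.13) rose, Zfp568 fell and Zfp146 was not called. Zfp260 had 113, 154 and 130.3 CPM in UTX TCD cells, against 85.3, 81.3 and 73.3 CPM in WT cells, with no overlap. The call of Zfp84 was lost without WT replicate 1. The 9-gene run on chromosome 6 (chr6:47819266-48623227) was mixed as well: Zfp398 (0.41 ± 0.09) and Zfp212 (0.47 ± 0.11) rose and Zfp467 fell, the call of Zfp212 being lost without WT replicate 2. Neighbours in a run can be close copies, and reads may have been lost or misplaced where the copy is not listed. Zfp874b shares 92.9% of its protein with Zfp874a, Zfp85 90.2% with Zfp273, Zfp607a 81.1% with Zfp607b and Zfp729b 80.4% with Zfp729a, so the counts of these 4 members are uncertain. The same holds for Zfp141, which shares 85.9% with the unlisted 2610021A01Rik. Other members of these runs also have unlisted copies at lower identity, among them Zfp60, at 76.3% with Zfp607b. Zfp53 and Zfp983 share 76.1% and 75.4% with Zfp51. Only protein identity was read, and how far reads match both copies was not tested.

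**Figure D4:**
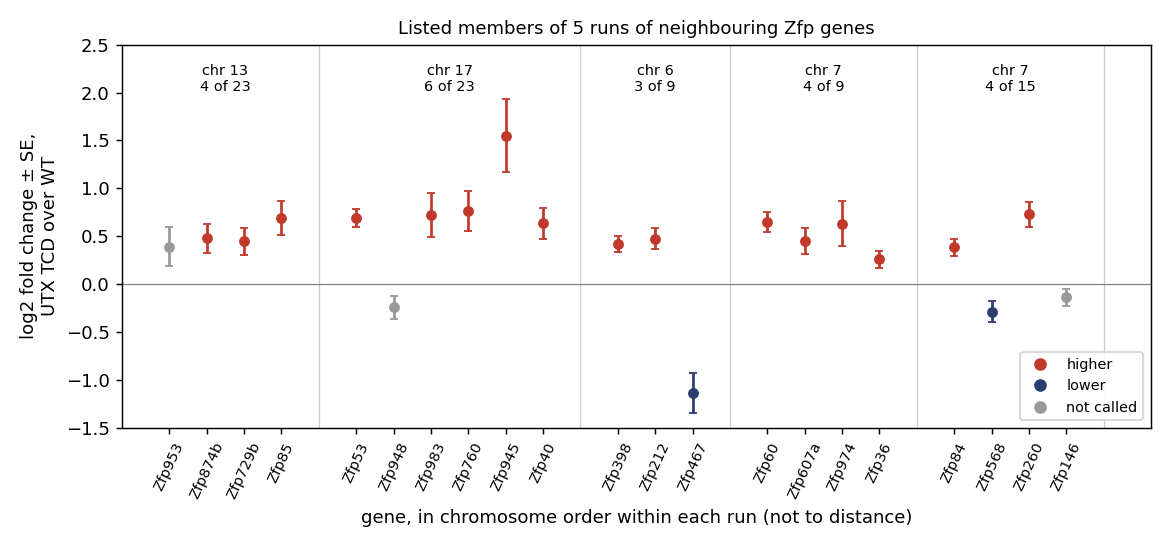
Log2 fold change of UTX TCD over WT with its SE for the listed members of 5 chromosomal runs, in chromosome order, with colour giving the call. All members of the first chromosome 7 run and 5 of 6 on chromosome 17 are red, while the chromosome 6 run and the second chromosome 7 run hold members on both sides of 0.

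Per kilobase of annotated exon, Zfp36l1 had the highest level, at 148 CPM per kb in UTX TCD cells and 166 CPM per kb in WT cells. Zfp281 came next in UTX TCD cells, at 121 CPM per kb against 68.6 in WT cells, and Zfp106 followed at 90.5 in UTX TCD cells and 99.3 in WT cells. The median member lay at 11.7 CPM per kb in UTX TCD cells and 9.38 in WT cells. Levels therefore spanned a wide range in both genotypes.

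Fold changes of the members ran against their level, with a Pearson correlation of -0.54 and a Spearman correlation of -0.63 between log2 fold change and average log2 CPM across 78 genes. Over all tested genes the values were -0.15 and -0.20. Genes are not independent replicates, all share the same 6 libraries, and the table's selection leaves no low gene with a small change: the smallest absolute log2 fold change of any tested gene was 0.25 below a log2 CPM of 4, against 0.05 above 8. Below a log2 CPM of 4, all 13 members rose and none fell, with 55.3% and 27.1% of tested genes. Between 4 and 6, 22 of 27 rose and 1 fell, with 53.1% and 20.5% of tested genes. Between 6 and 8, 18 of 32 rose and 4 fell, with 36.8% and 30.3% of tested genes. Above 8, 2 of 6 rose and none fell, with 28.5% and 27.2% of tested genes. The median log2 fold change of members was 0.90 below 4 and 0.565 between 4 and 6, against 0.959 and 0.467 for tested genes. It was 0.382 between 6 and 8 and 0.113 above 8, against -0.191 and -0.194 for tested genes. GC content and exon length showed almost no correlation with the fold change of members, at 0.02 and 0.06 (Pearson).

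**Figure D5:**
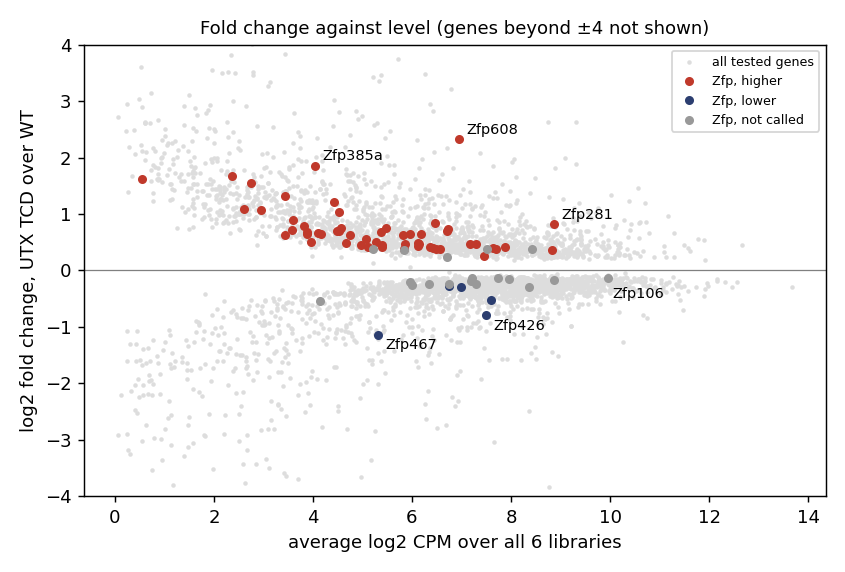
Log2 fold change of UTX TCD over WT against average log2 CPM, with Zfp genes coloured by call over all tested genes in grey; genes beyond ±4 are not shown. Low genes lie far from 0 in the table, and Zfp genes lie mainly on the upper branch.

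UTX TCD replicate 2 was often the highest library of its group. It was the highest UTX TCD library for 51 of 78 members (65.4%, against 39.9% of all tested genes) and the highest of all 6 libraries for 47 (60.3%, against 32.8%). It was the highest UTX TCD library of 44 members that rose (56.4% of members, against 29.3% of all tested genes) and the lowest of 3 that fell (3.85%, against 18.9%). Among called genes alone the shares were closer: it was the highest for 44 of the 55 members that rose, against 71.3% of all genes called higher, and the lowest for 3 of the 5 that fell, against 70.1% of all genes called lower. Without it 53 members were still called higher and 8 lower, at a median log2 fold change of 0.42. The library lay at 42.9 on the first principal component of the whole table, against 18.9 and 24.5 for the other UTX TCD libraries and -31.6 to -24.8 for the WT libraries.

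The series' title names hypoxia sensing, and the core of the hypoxia response element was therefore looked for in promoters, as ACGTG or GCGTG on either strand within 250 bases before the start. RefSeq sequences of build GRCm38.p6 matched 64 members. The core was in 35 of these (54.7%), against 58.3% of tested genes with a window and 38.6% of all genes. It was in 23 of 46 promoters of members that rose (50.0%), in 1 of 4 of those that fell and in 11 of 14 not called. A match is a run of letters, not a bound site. Zfp281 is shown because its promoter holds a match, in capitals, at one of the members with the highest level. Zfp385a and Zfp467 are shown as a large rise and the largest fall with none. The Zfp467 window precedes a RefSeq start that lies inside the GENCODE M21 gene, and the bases before the GENCODE start were not searched.
Zfp281, chr1:136624651-136624900, plus strand: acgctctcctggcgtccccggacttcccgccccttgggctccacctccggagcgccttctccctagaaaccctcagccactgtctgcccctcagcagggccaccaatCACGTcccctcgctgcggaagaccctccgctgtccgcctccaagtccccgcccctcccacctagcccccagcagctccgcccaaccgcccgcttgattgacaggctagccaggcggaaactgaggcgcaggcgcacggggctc
Zfp385a, chr15:103340087-103340336, minus strand: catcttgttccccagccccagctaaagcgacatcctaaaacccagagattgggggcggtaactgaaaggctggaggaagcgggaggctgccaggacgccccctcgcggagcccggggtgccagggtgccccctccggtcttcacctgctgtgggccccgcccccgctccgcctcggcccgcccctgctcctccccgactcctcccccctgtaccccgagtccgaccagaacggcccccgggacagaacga
Zfp467, chr6:48445091-48445340, minus strand: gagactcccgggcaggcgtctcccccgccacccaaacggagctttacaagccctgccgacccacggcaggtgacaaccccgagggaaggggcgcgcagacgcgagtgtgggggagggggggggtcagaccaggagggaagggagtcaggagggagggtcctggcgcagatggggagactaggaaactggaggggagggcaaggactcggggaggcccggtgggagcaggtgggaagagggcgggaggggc

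Zinc finger genes with other names were counted beside the Zfp genes. Of 26 rows named Zbtb, Zscan, Zkscan, Klf or Ikzf, 1 of them the antisense RNA Zbtb11os1, 19 were higher (73.1%, against 41.1% of all tested genes) and 2 lower (against 27.0%), with a median log2 fold change of 0.73. In the fits that left out WT replicate 1, 2 and 3 in turn, 11, 8 and 14 were higher, with 19.6%, 17.6% and 28.8% of all tested genes. Klf2, a quiescence and trafficking factor of T cells, averaged 171 ± 49.0 CPM in UTX TCD cells and 38.3 ± 10.03 CPM in WT cells, and Zbtb32, an activation-induced repressor, 56.6 ± 7.52 CPM in UTX TCD cells and 195 ± 27.1 CPM in WT cells (SD, n = 3 each). Their log2 fold changes were 2.16 and -1.79. Klf2 is named although Zbtb32, Zbtb4 and Ikzf3 had smaller p-values in the edgeR test. Zbtb4 (1.33) and Ikzf3 (1.13) were higher on the log2 scale. No test of the Zfp genes against these 26 rows was made.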

How the data were processed

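Bulk RNA sequencing measured gene expression in 6 libraries, 1 for each mouse per the series' design text. The authors deposited whole-number read counts for each gene, not normalized. The submitters' processing notes name HISAT2, HTSeq and FastQC, and the build mm10; the sources used here do not give versions, annotation, strand setting or the treatment of multiply matching reads. In GENCODE M21, 33 of the 78 members overlap a gene on the opposite strand, among them Zfp608, Zfp612, Zfp516, Zfp426 and Zfp575. If strand was ignored, reads of these 33 members in any exon stretch shared with the overlapping gene cannot be assigned to 1 gene. How much exon is shared was not measured. Every row named a gene. Columns were matched to samples through the genotype and number in the titles. Column totals are not library depths, because the table holds a selection of genes. Adjusted p-values over the listed genes count too few tests.

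Counts of all genes were fitted with edgeR 4.0.16 in R 4.3.3 (quasi-likelihood F test, genotype only, TMM scaling, low-count filter with minimum count 10 and minimum total 15, Benjamini-Hochberg over 4118 tested genes). A gene is called at an adjusted p under 0.05. Standard errors are the size of the log2 fold change over the root of its F statistic. CPM values use the TMM-scaled totals, and log2 CPM a prior count of 2. The script was tested on simulated data. Alternatives were RLE and upper-quartile scaling, scaling centred on the emptiest fold change (0.07), no filter, DESeq2 1.42.0, limma-voom (limma 3.58.1), a replicate block, all 55536 annotated genes as tests, a length and GC correction (values for 4127 of 4162 genes) and leaving out each library. Between replicates, chi-square per degree of freedom was 19.9 to 87.7 in UTX TCD and 7.09 to 11.7 in WT libraries, so none was counted as a duplicate.

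Members and gene lists were chosen with earlier results of these data known. Named members are a panel of 22 genes picked by role, of which 8 had rows; the 10 largest rises and up to 10 largest falls among called members without overlap and with an average log2 CPM of at least 2; members of runs with 3 or more listed; up to 3 called members with the smallest p in each protein class; and the 3 nearest 0. Others are said to be named after their values were seen. Proteins were translated from the longest coding sequence of each gene in GENCODE M21, since no protein table was used; identity with the closest other protein came from BLAST+ 2.17.0. C2H2 fingers were C, 2 to 4 residues, C, 12 residues, H, 3 to 5 residues, H. KRAB boxes were read with a pattern of fixed residues and a wider one that accepts substitutions at them.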

Additional observations from a re-analysis of the deposited data

How the results depend on the processing

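No member changed sign under any alternative, and the median log2 fold change of the members stayed at 0.39 to 0.54. Members called higher numbered 51 to 56 under the other scalings, no filter, DESeq2, limma-voom, the replicate block (53 higher, 4 lower) and the length and GC correction, 21 to 55 with a library left out, and 3 when all annotated genes were counted as tests. These were 65.4% to 71.8%, 26.9% to 70.5% and 3.85% of members, against 38.1% to 42.8%, 17.6% to 44.0% and 5.2% of all tested genes. With the replicate block 5.13% of members and 24.9% of all tested genes were lower. Members called lower numbered 3 with RLE scaling, upper-quartile scaling and DESeq2, 14 with scaling centred on the emptiest fold change, 8 with the length and GC correction, 3 to 12 with a library left out, and 1 when all annotated genes were counted. With RLE scaling, upper-quartile scaling and DESeq2, 3.85% of members were lower, against 20.3%, 17.6% and 22.3% of all tested genes. With centred scaling the shares were 17.9% against 43.9%, and with the length and GC correction 10.3% against 26.4%. With a library left out they were 3.85% to 15.4% against 8.47% to 35.3%. With all annotated genes counted they were 1.28% against 3.38%. The replicate numbers share only a number: same-numbered libraries deviated from their group means with correlations of 0.28, -0.28 and 0.18, and 2 of 3 UTX TCD and 1 of 3 WT libraries correlated best with their own number. The block ended the calls of Zfp568, Zfp770 and Zfp974 among the named members. Of 43 named members, 5 stayed on their side of the threshold throughout. Leaving out WT replicate 1, 2 or 3 ended 18, 19 and 11 calls among them. The wider KRAB pattern was added after seeing the data. The cause of these shifts was not tested. With 3 mice a group, the table's selection on the genotype difference limits what a count of members can show.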
